A study of Homo sapiens with 2 samples.

Results

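The data described here come from 4 gene-poor autosomal segments of 10 Mb, on chromosomes 13, 21, 5 and 6, in which OCI-AML3 cells had a higher mean DNA methylation level than AML5 cells. Both are established human acute myeloid leukemia (AML) cell lines. OCI-AML3 is labelled mutant for the DNA methyltransferase DNMT3A, carrying a heterozygous mutation, and AML5 (labelled OCI-AML5) is wild type for DNMT3A. Each line was represented by 1 untreated culture and 1 whole-genome bisulfite library, so the lines differ in their whole origin as well as in DNMT3A, and no value has a replicate. The segments are chr13:60000001-70000000, chr21:20000001-30000000, chr5:20000001-30000000 and chr6:60000001-70000000 on GRCh37 (hg19). They were cut into bins of 10 kb, and a bin was kept when 10 or more of its CpG dinucleotides each had more than 5 reads in OCI-AML3 and in AML5. This left 3780 bins of the 281813 that passed the same filter in the whole genome, with 978 on chromosome 13, 999 on chromosome 21, 1000 on chromosome 5 and 803 on chromosome 6. The sequence of the 4 segments holds 3808 bins, since the chromosome 6 segment includes part of the centromere and has only 8.07 Mb of known bases. The segments were chosen because OCI-AML3 was higher in these same libraries, so every difference between the lines below is a description and was not tested.

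In bisulfite sequencing, unmethylated cytosines are read as thymine and methylated cytosines as cytosine, and the methylation level of a CpG is the share of its reads that show cytosine. The enzyme DNMT3A places new methyl groups on CpG dinucleotides, and DNMT1 copies existing ones after replication. In many cancer cells and cultured cells, large gene-poor, AT-rich and late-replicating stretches of the genome lose methylation over megabases while expressed gene bodies keep it. Such stretches are known as partially methylated domains, and within them a CpG that stands alone between A or T bases is known to lose methylation most readily.

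The libraries were of similar size, with 895537506 nuclear CpG calls in OCI-AML3 against 890581858 in AML5, and a mean of 32.9 and 32.5 calls per autosomal CpG. Averaged over the autosomal CpG dinucleotides covered in this way, methylation stood at 67.7% (OCI-AML3) and 75.4% (AML5). At the autosomal median depth of 28 and 31 calls, 3 calls, taken as the smallest number detected, are a share of 10.7% and 9.68%. In OCI-AML3 the segment medians were 8 calls on chromosome 13, 17 on chromosome 21, 30 on chromosome 5 and 15 on chromosome 6. In AML5 they were 21 or 22. Where depth is lower, 3 calls are a larger share. Levels below such a share were still used in all means. These floors, and the Wilson 95% intervals given below, cover read sampling only and count every call as independent.

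To show what the difference looked like at base level, 1 window of 150 bases is printed from the segments on chromosomes 13, 5 and 6. Each is the window outside exons with the largest mean difference of its segment among those with at least 3 CpG dinucleotides read 10 or more times in both lines. The sequences are those of the plus strand of the GRCh37 reference, and the capitals mark the CpG dinucleotides.
chr13:67568222-67568371, in an intron of PCDH9: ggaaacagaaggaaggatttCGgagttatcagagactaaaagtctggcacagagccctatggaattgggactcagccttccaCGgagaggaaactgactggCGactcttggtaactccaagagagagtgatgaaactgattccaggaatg
chr5:24812200-24812349, in a long non-coding RNA gene upstream of CDH10: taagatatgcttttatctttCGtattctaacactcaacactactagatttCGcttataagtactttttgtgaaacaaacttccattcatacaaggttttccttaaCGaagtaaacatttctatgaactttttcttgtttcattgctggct
chr6:69880539-69880688, in an intron of ADGRB3: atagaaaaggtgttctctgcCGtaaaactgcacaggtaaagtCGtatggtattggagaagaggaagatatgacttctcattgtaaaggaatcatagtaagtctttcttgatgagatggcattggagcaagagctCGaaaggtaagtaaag
In the PCDH9 window, 81 of 87 calls were methylated in OCI-AML3 (interval 85.8–96.8%) and 20 of 187 in AML5 (7.03–15.9%). This window was read more deeply than its segment. Its CpG dinucleotides had 24 to 36 reads in OCI-AML3 and 61 to 65 in AML5, against segment means of 10.5 and 22.7. On chromosome 5, 174 of 182 calls were methylated in OCI-AML3 (91.6–97.8%) and 3 of 89 in AML5 (1.15–9.45%). In the ADGRB3 window, 83 of 91 calls were methylated in OCI-AML3 (83.6–95.5%) and 0 of 64 in AML5 (0–5.66%), where 3 calls, the smallest number taken as detected, would be a share of 4.69%. These windows are the extremes of their segments, so their values say nothing of the typical size of the difference.

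Averaged over whole segments, OCI-AML3 was higher by 5.00 to 12.99 percentage points. The mean over the chromosome 13 segment was 77.7% in OCI-AML3 against 64.7% in AML5 over 34744 CpG dinucleotides. As a share of all calls, this was 76.5% (interval 76.3–76.6%) and 65.2% (65.1–65.3%). The chromosome 21 segment had 76.8% and 70.2% over 52678 CpG dinucleotides, a difference of 6.53 points. On chromosome 5 the means were 68.4% and 62.0% over 50878 CpG dinucleotides, 6.43 points apart, and on chromosome 6 they were 74.3% and 69.3% over 33249, 5.00 points apart. The intervals of the share of calls were 76.08–76.23% and 70.81–70.95% on chromosome 21, and 70.87–70.99% and 63.77–63.93% on chromosome 5. On chromosome 6 they were 73.68–73.87% and 69.36–69.54%. The segments were chosen on this contrast, so the gap between these intervals is not support for it. Of 293 autosomal segments of 10 Mb, these hold the first 4 places by difference. Only 9 had a positive difference, and the segment just outside the 4, chr13:70000001-80000000, was 1.61 points higher in OCI-AML3.

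The 4 segments reached this difference from different sides. In AML5, the chromosome 5 segment was the second lowest of the 293 by mean level and the chromosome 13 segment the sixth lowest, while chromosome 6 was at place 24 from the bottom and chromosome 21 at place 32. In OCI-AML3, chromosomes 13 and 21 held places 3 and 4 from the top, chromosome 6 was at place 23 and chromosome 5 was near the middle, at place 134. The chromosome 5 segment was therefore low in AML5 and average in OCI-AML3, whereas the chromosome 13 segment was low in AML5 and high in OCI-AML3.

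In base composition the segments were close to each other. Their GC content was between 34.96% and 35.9%, against a median of 40.8% over the other 289 autosomal segments, and the chromosome 13 segment was the most AT-rich autosomal segment of all. Between 5 and 10 protein-coding genes overlapped each segment, where the others had a median of 49 (25th to 75th percentile 34–82). The 2 other autosomal segments with at most 10 protein-coding genes and at least 20000 covered CpG dinucleotides, chr13:80000001-90000000 and chr4:130000001-140000000, had differences of −2.54 and −15.2 points. The short end of chromosome 4, chr4:190000001-200000000, with 3 protein-coding genes but only 10636 covered CpG dinucleotides, was 0.96 points higher in OCI-AML3. Of 8 other autosomal segments with no more GC than the richest of the 4, a comparison added after the data had been seen, 0 were higher in OCI-AML3, and their differences lay between −19.2 and −2.54 points. The 4 were chosen for being higher in OCI-AML3, so segments of like kind left over by that choice tend to be lower. These comparisons therefore do not set the 4 apart from like sequence. With 1 library per line, this contrast between segments could not be tested.

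**Figure D1:**
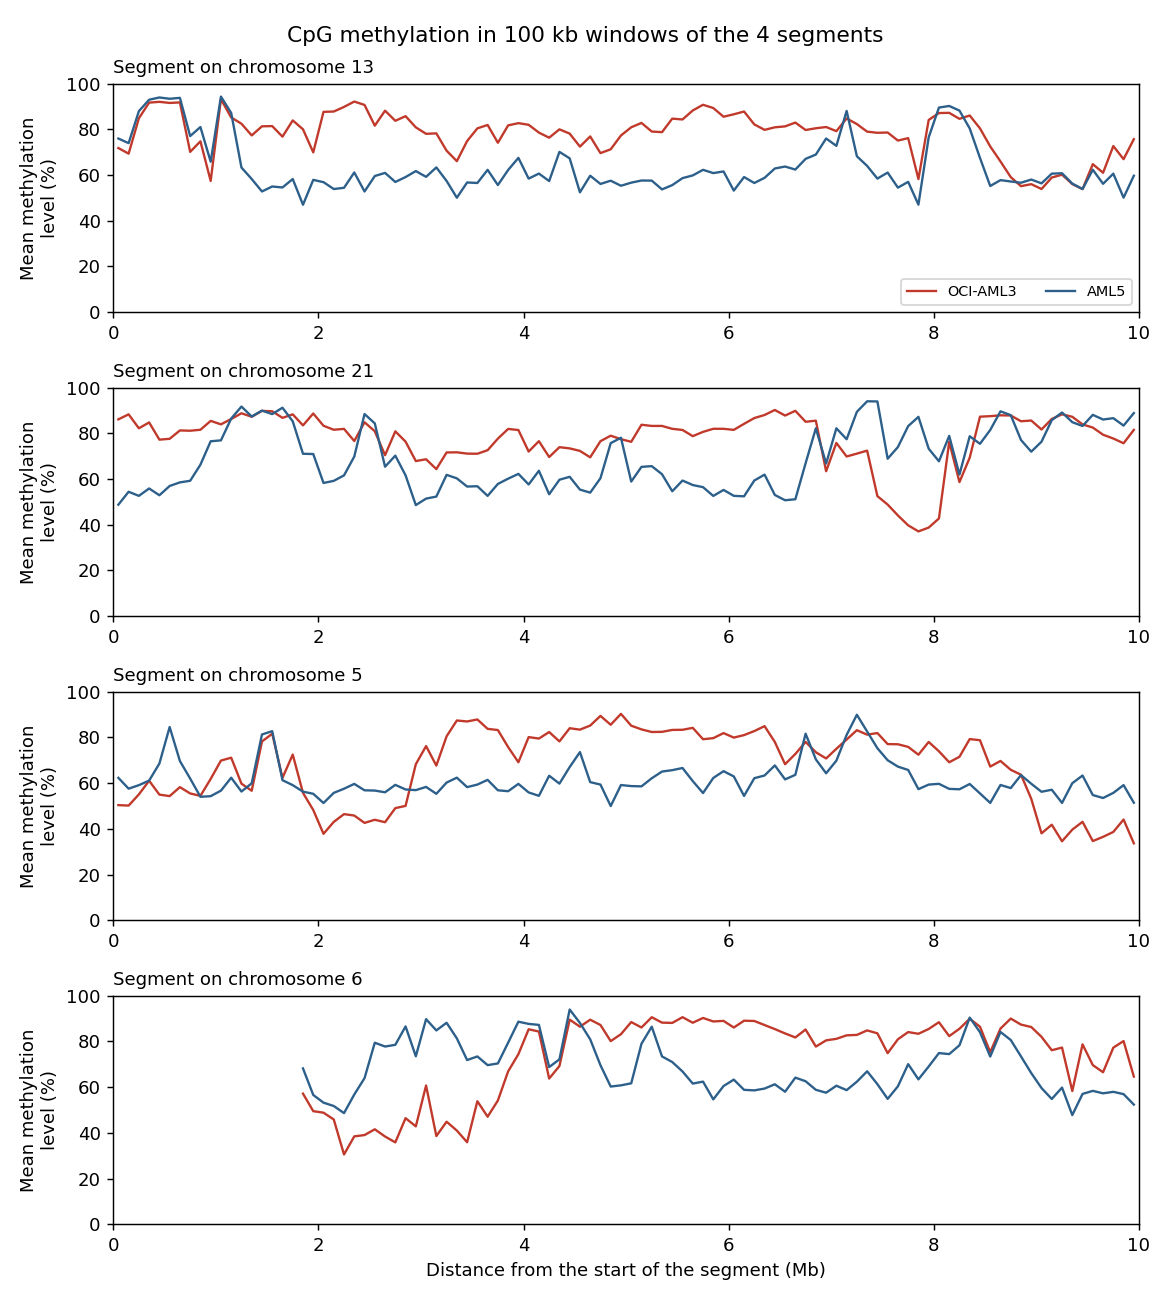
Mean CpG methylation level (%, vertical axis) in 100 kb windows along each of the 4 segments, by distance from the start of the segment in Mb (horizontal axis), in OCI-AML3 (red) and AML5 (blue), 1 library each. Windows without enough covered CpG dinucleotides, among them the centromere on chromosome 6, are left blank. Long stretches with OCI-AML3 near 80% and AML5 near 60% alternate with stretches where the lines meet or where OCI-AML3 is lower.

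The higher mean came from long stretches and not from the whole of each segment. In windows of 1 Mb, OCI-AML3 was higher in 9 of 10 on chromosome 13, 7 of 10 on chromosome 21, 7 of 10 on chromosome 5 and 6 of 9 on chromosome 6. The window with the largest increase was chr13:62000001-63000000, with 86.8% in OCI-AML3 against 57.9% in AML5. The corresponding windows were chr21:20000001-21000000 with 82.5% and 58.5%, chr6:66000001-67000000 with 84.4% and 60.3%, and chr5:24000001-25000000 with 83.7% and 60.8%. In each of these, the AML5 level was near 60% and the OCI-AML3 level above 80%.

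Each segment also held sequence that was less methylated in OCI-AML3, as in most of the genome. At chr6:62000001-63000000 the level was 40.7% in OCI-AML3 against 68.4% in AML5, and at chr21:27000001-28000000 it was 57.7% and 82.3%. The last window of the chromosome 5 segment, chr5:29000001-30000000, had 38.6% and 56.5%. On chromosome 13 the lowest difference was −4.50 points, in the first window, where the levels were 77.4% and 81.9%. In these 4 windows AML5 lay between 56.5% and 82.3%, so they include both well methylated sequence (chromosomes 13 and 21) and sequence already low in AML5 (chromosome 5).

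At 10 kb, 2665 of the 3780 bins (70.5%) were higher in OCI-AML3, where 15.9% of all bins in the genome were. A difference of at least 20 points in favor of OCI-AML3 was found in 1150 bins (30.4%), with 2.85% of all bins as background. A difference of at least 20 points in favor of AML5 was found in 265 bins (7.01%), with 17.0% of all bins as background. Since the segments were selected on this contrast, the shares describe how the difference was made up and are not support for it. By segment, at least 20 points higher were 380 bins (38.9%) on chromosome 13, 295 (29.5%) on chromosome 21, 220 (22.0%) on chromosome 5 and 255 (31.8%) on chromosome 6. The numbers at least 20 points lower were 2, 78, 54 and 131 in the same order, so chromosome 13 was nearly one-sided and chromosome 6 was the most divided.

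The selection used the number of covered CpG dinucleotides as its only threshold on bins. Just outside, the 8 bins with 9 covered CpG dinucleotides had a median difference of 29.0 points, and the 3 bins with 8 had 1.32 points. Just inside, the 11 bins with 10 had 23.6 points, and the 11 bins with 11 had 20.1 points. Each of these medians rests on few bins.

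**Figure D2:**
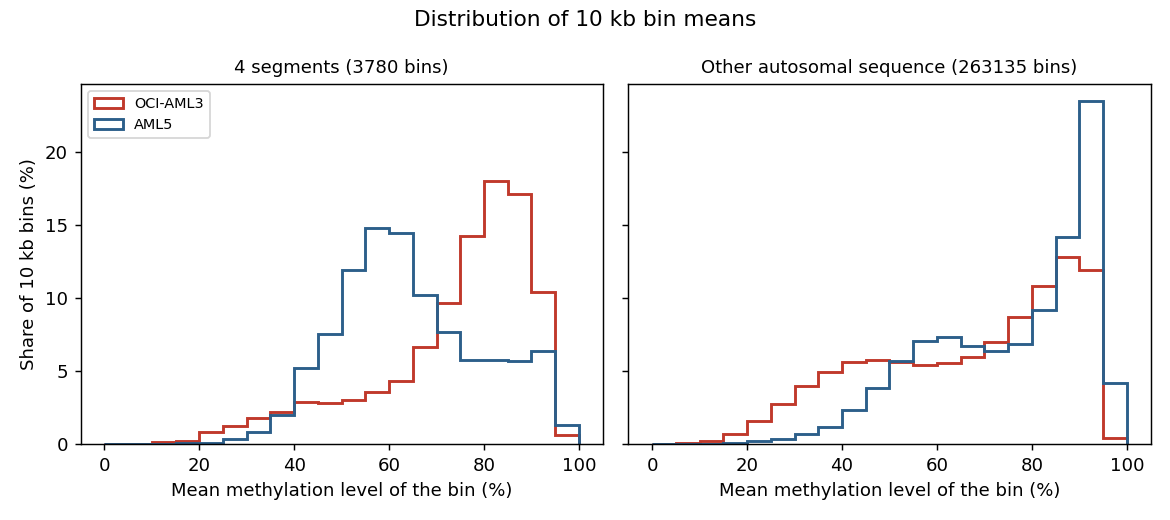
Share of 10 kb bins (%, vertical axis) by mean methylation level of the bin (%, horizontal axis, steps of 5 points) in OCI-AML3 (red) and AML5 (blue), for the 3780 bins of the 4 segments (left) and the 263135 other autosomal bins (right). In the segments the median was 78.9% in OCI-AML3 against 62.6% in AML5, whereas over the other autosomal bins it was 71.4% and 80.7%.

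The typical bin of the segments was at an intermediate level in AML5 and at a higher one in OCI-AML3. The median bin level was 78.9% in OCI-AML3 (25th to 75th percentile 66.9–85.8%) and 62.6% in AML5 (53.9–74.9%). Below 60% in AML5 were 1616 bins, and 498 of them (30.8%) were at 80% or more in OCI-AML3. In the other autosomal sequence the same was true of 2298 of 56853 such bins (4.04%). Below 60% in OCI-AML3 were 712 bins of the segments, of which 106 (14.9%) were at 80% or more in AML5, as were 11.6% of the 96671 such bins in the other autosomal sequence. The bins at least 20 points higher had a median level of 83.1% in OCI-AML3 against 54.3% in AML5. The 6212 other autosomal bins that passed the same limit had 82.5% and 54.7%. The limit itself favors a high level in OCI-AML3 and a lower one in AML5, so nothing is read from this likeness. Such bins were more frequent in the segments, as the selection implies.

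The spread among bins differed between the lines and the segments. On chromosome 5 the SD between bins was 18.4 points in OCI-AML3 against 11.4 in AML5, and on chromosome 6 it was 19.96 and 14.9. On chromosomes 13 and 21 the SD was smaller in OCI-AML3 (12.5 and 13.97 points) than in AML5 (15.6 and 16.5).

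Bins of 1 kind lay side by side. The correlation of the difference between neighboring bins was 0.72 on chromosome 13 (957 pairs), 0.90 on chromosome 21 (997 pairs), 0.90 on chromosome 5 (999 pairs) and 0.91 on chromosome 6 (798 pairs). Neighboring bins share the library, the base composition and some reads, so these values are descriptive. The longest run of bins at least 20 points higher was 43 bins at chr5:24640001-25070000, beginning at the start of CDH10, with 87.8% in OCI-AML3 against 55.7% in AML5. Chromosome 13 had a run of 27 bins at chr13:62230001-62500000 without a protein-coding gene (91.5% and 54.0%). On chromosome 21 the first 24 bins of the segment formed such a run (85.1% and 50.2%), and on chromosome 6 there were 23 bins within EYS at chr6:65720001-65950000 (88.7% and 56.3%). In the other direction, the longest run was 53 bins at chr6:62460001-62990000 over KHDRBS2, with 39.9% in OCI-AML3 against 81.1% in AML5. Next was a run of 39 bins at chr21:27550001-27940000, which covered most of CYYR1 and the sequence upstream of APP, with 38.1% and 80.2%. Chromosome 5 had 12 such bins at chr5:20470001-20590000, around the start of CDH18 (50.9% and 82.2%).

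Among bins with at least 20 covered CpG dinucleotides, the largest increase was at chr21:26530001-26540000, with 92.1% in OCI-AML3 against 35.7% in AML5 and no annotated gene. On chromosome 13 it was at chr13:65120001-65130000 (86.6% and 33.7%), also without a gene, where OCI-AML3 had only 6.88 calls per CpG. On chromosome 5 it lay in 2 long non-coding RNA genes at chr5:24840001-24850000 (90.98% and 41.1%) and on chromosome 6 in EYS at chr6:66360001-66370000 (89.0% and 43.1%). The largest decrease was at chr6:63180001-63190000, with 14.004% in OCI-AML3 against 84.7% in AML5. At chr21:27810001-27820000 the levels were 21.6% and 86.3%, at chr5:20510001-20520000, within CDH18, 54.0% and 92.7%, and at chr13:60910001-60920000 63.4% and 89.7%.

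The kind of CpG that differed was examined next, by the bases on either side and by other CpG dinucleotides within 35 bases. Mean methylation of CpG dinucleotides with A or T on both sides and no neighbor was 57.2% in OCI-AML3 against 43.2% in AML5 over 30135 sites, 13.9 points apart. Those with C or G on both sides and a neighbor had 84.1% and 82.1% over 27304 sites, 2.07 points apart. The difference fell stepwise with the number of neighbors, from 10.8 points with 0 to 6.23 with 1, 4.04 with 2 and 2.48 with 3 or more. All 4 combinations of A and T as flanking bases had differences between 11.5 and 12.7 points. CpG-dense sequence, with at least 10 other CpG dinucleotides within 100 bases, differed by 2.46 points (77.5% and 75.1%).

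The same order held in each segment between these extremes. For lone CpG dinucleotides between A or T, the difference was 21.97 points on chromosome 13 (62.0% and 40.1%), 12.1 on chromosome 21 (61.9% and 49.9%), 12.8 on chromosome 5 (47.5% and 34.7%) and 10.8 on chromosome 6 (60.6% and 49.8%). For those between C or G with a neighbor it was 4.68 points on chromosome 13, 2.16 on chromosome 21, 1.39 on chromosome 5 and −0.03 on chromosome 6. Outside the segments the sizes were ordered alike with the sign turned. There the lone sites between A or T had 51.1% in OCI-AML3 against 63.6% in AML5, a difference of −12.5 points, and for the sites between C or G with a neighbor it was −4.47 points. In OCI-AML3 the level of the lone sites between A or T differed from inside to outside the segments by 6.06 points (higher inside), and in AML5 by −20.3 points (lower inside).

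**Figure D3:**
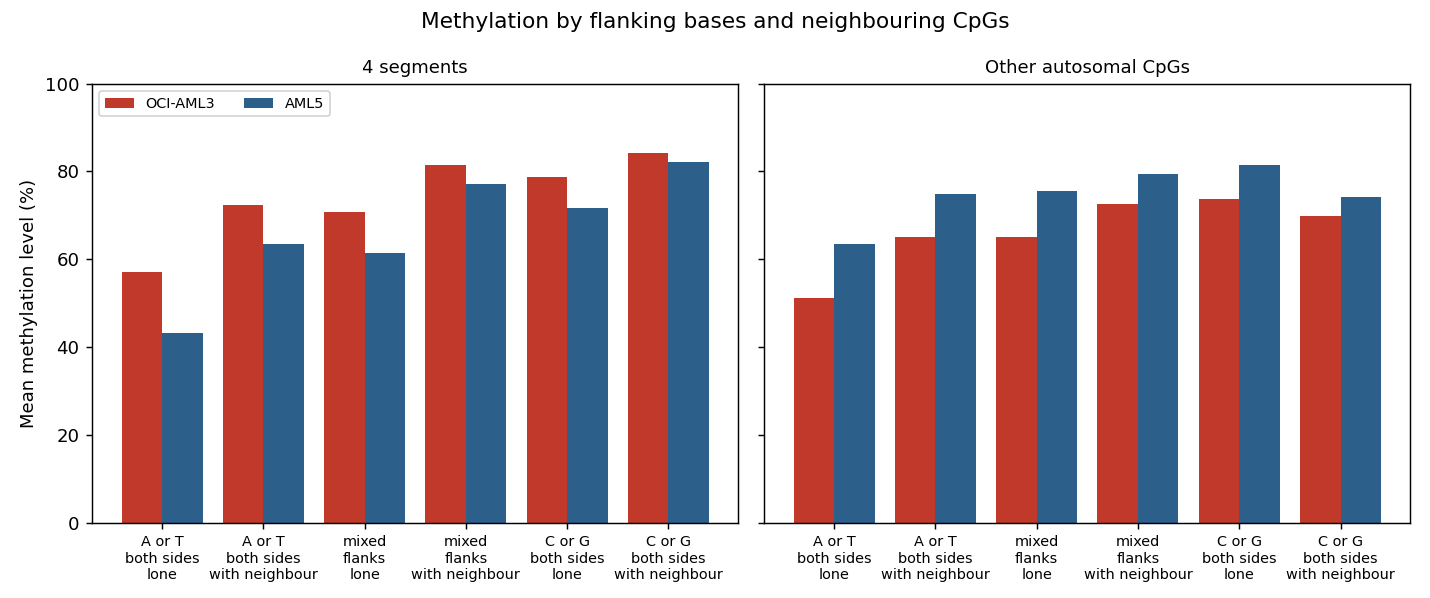
Mean methylation level (%, vertical axis, from 0) of CpG dinucleotides by flanking bases and by the presence of another CpG within 35 bases (lone or with neighbor; horizontal axis), in OCI-AML3 (red) and AML5 (blue), in the 4 segments (left) and in the other autosomal CpG dinucleotides (right). OCI-AML3 is higher in all 6 classes on the left, from 57.2% against 43.2% to 84.1% against 82.1%, and lower in all 6 on the right.

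At the level of single CpG dinucleotides, the segments had fewer unmethylated and partly methylated sites in OCI-AML3. Below 20% were 11.4% of the 171549 covered sites in OCI-AML3 against 15.5% in AML5, and between 20% and 80% were 25.03% and 32.1%. Sites at 80% or more made up 63.6% and 52.4%. On chromosome 13 the last share was 69.2% in OCI-AML3 against 50.0% in AML5.

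By annotation (GENCODE), the difference lay mainly outside protein-coding genes. Sequence outside all annotated genes, with 54.6% of the covered CpG dinucleotides, had 76.2% in OCI-AML3 against 66.0% in AML5, and other annotated genes, mostly long non-coding RNA genes and pseudogenes, had 74.3% and 64.9%. Exons outside promoters, taken from annotated genes of all kinds, had 77.3% in OCI-AML3 against 72.7% in AML5. Introns of protein-coding genes had 71.3% in both lines, with a difference of 0.02 points. This mean hid opposite values, since the difference in introns was −13.5 points on chromosome 21 and −5.08 on chromosome 5, but 5.75 on chromosome 13 and 8.21 on chromosome 6. Counted by bins, 979 of 2926 without a protein-coding gene (33.5%) and 171 of 854 overlapping one (20.02%) were at least 20 points higher. On chromosome 6 the order was the other way, with 131 of 348 bins in genes (37.6%) and 124 of 455 outside (27.3%). Sequence outside all annotated genes differed by only 2.49 points on that chromosome, where EYS, the largest gene of the segments, lies.

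The segments overlapped 375 annotated genes, of which 155 were long non-coding RNA genes, 124 pseudogenes and 31 protein-coding genes. All 31 had their most upstream start in a segment, and 29 had at least 10 covered CpG dinucleotides in the promoter, taken as 2000 bases on either side of the start. Of these 29 promoters, 3 were at least 20 points higher in OCI-AML3 (1.79% of 19667 promoters genome-wide) and 3 at least 20 points lower (8.61% genome-wide). By any amount, 13 of 29 were higher, against 15.3% genome-wide. In 12 promoters both lines were below 20%. The median promoter difference was −1.05 points, and over all promoters it was −4.68. The promoters of ATP5PF and GABPA overlap, as do those of ADGRB3 and an unnamed gene, so these are not separate measurements.

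The cadherins and protocadherins, adhesion proteins used mostly in the nervous system, were the largest family. Of 6 promoters, that of CDH10 was at least 20 points higher in OCI-AML3, with 78.7% against 48.9% in AML5 over 41 CpG dinucleotides. The promoter of CDH18 was lower, with 43.6% and 67.0% over 20 CpG dinucleotides, and so was that of PCDH20, with 6.57% and 34.7% over 80. The promoter of CDH12 had 21.8% and 41.0%, that of CDH9 was methylated in both lines (89.1% and 85.2%), and that of PCDH9 was low in both (12.2% and 12.8%). The family thus included promoters on both sides of the limit and promoters with little difference.

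In the bodies of these genes the order was partly different. PCDH9 had 79.6% in OCI-AML3 against 67.3% in AML5 over 3222 CpG dinucleotides, although its promoter was low in both. CDH10 had 83.6% and 71.5% and CDH9 73.3% and 67.8%. The bodies of CDH12 and CDH18 were lower in OCI-AML3, with 47.0% against 56.8% and 54.7% against 64.7% (for CDH18, the part within the segment). PCDH20 had 63.4% and 68.3% over only 36 CpG dinucleotides.

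Of the other adhesion and receptor genes, APP, which encodes the amyloid precursor protein, had the largest promoter difference. Its level was 64.8% in OCI-AML3 against 17.0% in AML5 over 219 CpG dinucleotides. In the first 500 bases of the gene it was 79.6% and 0.19% over 57 CpG dinucleotides, and between 1000 and 500 bases upstream of the start it was the reverse, 42.0% and 91.5% over 7. The body of APP was lower in OCI-AML3, with 63.1% and 92.5% over 2479 CpG dinucleotides. In OCI-AML3 promoter and body were therefore at nearly the same level, while in AML5 an unmethylated start stood within a methylated gene.

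The 150 bases upstream of APP and CDH10 are printed because both promoters were at least 20 points higher. They were picked from the 6 promoters past the limit after their values had been seen, as the ones with the most covered CpG dinucleotides in this stretch. Each is given 5′ to 3′ on the strand of the gene (minus), from GRCh37, with CpG dinucleotides in capitals.
APP, chr21:27543447-27543596: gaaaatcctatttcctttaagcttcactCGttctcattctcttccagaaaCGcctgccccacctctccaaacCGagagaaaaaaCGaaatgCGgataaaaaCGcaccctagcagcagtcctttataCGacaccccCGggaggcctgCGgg
CDH10, chr5:24645088-24645237: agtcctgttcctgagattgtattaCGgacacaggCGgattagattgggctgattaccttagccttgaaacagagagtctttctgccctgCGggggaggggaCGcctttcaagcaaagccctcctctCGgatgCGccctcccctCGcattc
The 9 CpG dinucleotides of the APP stretch were methylated on average at 64.0% in OCI-AML3 against 1.85% in AML5, and the 7 of CDH10 had 68.7% and 15.3%.

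EYS, a photoreceptor gene, had 88.8% and 50.5% at its promoter, over only 11 CpG dinucleotides, and 87.5% and 69.0% over the 8074 of its body. The promoter of ADGRB3, a brain adhesion receptor gene, was low in both lines (2.21% and 17.2%), and its body within the segment had 73.2% in OCI-AML3 against 56.9% in AML5. NCAM2, a neural cell adhesion gene, had 40.7% and 37.2% at the promoter and 80.2% and 76.0% in the body. JAM2, a junction protein gene, had 10.1% and 23.6% at the promoter and 85.5% and 91.2% in the body. Of these 5 genes, EYS, ADGRB3 and NCAM2 had a higher body level in OCI-AML3, as had 7.08% of 18293 gene bodies genome-wide.

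The ADAMTS genes encode secreted metalloproteases. ADAMTS5 had the largest promoter decrease of the segments, with 23.6% in OCI-AML3 against 65.7% in AML5 over 214 CpG dinucleotides. The first 500 bases of the gene were low in both lines (0.32% and 8.08%), and the difference lay to either side, with 4.47% and 85.8% between 1000 and 500 bases upstream over 35 CpG dinucleotides. The promoter of ADAMTS1 had 4.16% and 14.7%. The unmethylated stretch around the start of ADAMTS5 was thus wider in OCI-AML3.

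Genes used broadly by cells had unmethylated promoters and methylated bodies in both lines. Promoters of DIAPH3, TDRD3, PHF3, ATP5PF, GABPA and MRPL39 lay between 3.74% and 14.4% in OCI-AML3 and between 3.65% and 18.6% in AML5. The bodies of DIAPH3 (an actin regulator), TDRD3, MRPL39 (a mitochondrial ribosomal protein), GABPA (a transcription factor) and PHF3 had 89.5% to 92.6% in OCI-AML3 and 90.8% to 94.8% in AML5. That of ATP5PF, an ATP synthase subunit, had 78.9% and 89.1%. All 6 bodies were lower in OCI-AML3, with differences from −10.2 to −1.38 points, as were 92.9% of gene bodies genome-wide. PTP4A1, a phosphatase gene, had a methylated most upstream promoter (82.4% and 88.6%) and a body mean of 53.4% and 58.5% over 594 CpG dinucleotides. This body spans the promoter of an unnamed gene that starts within PTP4A1. That inner promoter was unmethylated in both lines, with 2.08% and 6.49% over 230 CpG dinucleotides, so the body mean mixes unlike sequence.

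Among the remaining genes, PRDM9, which sets recombination sites in meiosis, was the only body at least 20 points higher, with 87.4% in OCI-AML3 against 57.8% in AML5 over 510 CpG dinucleotides. Its promoter had 91.1% and 77.3%. Lower bodies were those of CYYR1 (38.5% and 84.6%) and KHDRBS2 (42.0% and 79.3%), beside that of APP. The promoters of CYYR1 (60.8% and 58.4%) and KHDRBS2 (14.8% and 9.38%) differed little. LGSN, with 7 covered promoter CpG dinucleotides, was not assessed at its promoter and had 82.9% and 92.2% in its body. FKBP1C had 82.0% and 93.3% at its promoter, and ZC3H11C 91.7% and 82.4%. Of 27 bodies with at least 10 covered CpG dinucleotides, 8 were higher in OCI-AML3 by any amount (7.08% genome-wide), 1 of them by at least 20 points (0.541% genome-wide), and 3 were at least 20 points lower (7.59% genome-wide). Some of these bodies overlap, among them those of ZC3H11C and EYS, both higher in OCI-AML3, so they are not all separate measurements. The segments were chosen on this contrast, so nothing is read from these shares.

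Depth in OCI-AML3 relative to AML5 differed between the segments. In the chromosome 13 segment OCI-AML3 had 10.5 calls per CpG and AML5 22.7, a ratio of 0.463, and only 61.0% of the listed CpG dinucleotides were covered in both lines. On chromosome 5 the ratio was 1.498 (37.1 and 24.8 calls), on chromosome 21 it was 0.84 (20.2 and 24.1) and on chromosome 6 it was 0.82 (18.7 and 22.7). The other 8 segments of like GC had ratios of 0.77 to 0.83, close to those of chromosomes 21 and 6.

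The segments were chosen for a positive difference, so its sign at high and at low relative depth was set by that choice. The low ratio on chromosome 13 ended within the segment. At chr13:60000001-68600000 the ratio per 100 kb was 0.34 to 0.53, and OCI-AML3 had 80.5% and AML5 65.9%, with 70 of 86 windows higher in OCI-AML3. At chr13:68600001-70000000 the ratio was 0.64 to 0.99, and the levels were 61.5% and 57.9%, with 7 of 14 windows higher. The difference was thus 14.6 points in the first stretch and 3.58 in the second. The neighboring segment chr13:50000001-60000000 had a median ratio of 0.42 per 100 kb and a methylation difference of −4.85 points. At chr13:40000001-50000000, with a ratio of 0.48, the difference was −5.41 points. On chromosome 5, the adjoining segments chr5:10000001-20000000 and chr5:30000001-40000000 had ratios of 1.72 and 1.68 and differences of −1.97 and −0.57 points. Within the chromosome 5 segment, the 3 windows of 1 Mb that were lower in OCI-AML3 had ratios of 1.38 to 1.44. Those at least 10 points higher had 1.52 to 1.61. The lowest ratio of all, 1.378, was in chr5:21000001-22000000, which was 2.35 points higher in OCI-AML3. The window chr5:27000001-28000000 had a ratio of 1.546 and was 6.01 points higher. Whether a change in the number of chromosome copies lies behind these ratios was not tested.

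By reads in OCI-AML3, the difference over the 4 segments was 9.18 points at CpG dinucleotides with 6 to 9 reads, 8.73 with 10 to 14, 7.81 with 15 to 24 and 6.34 with 25 or more. The shallow steps hold many sites of chromosome 13, which had the largest difference, so the pooled values mix depth with segment. On chromosome 13 the difference was 15.05, 13.3 and 12.2 points over the first 3 of these steps, and in the last the levels were 73.7% and 63.7%. On chromosome 21 it was 7.71, 7.58, 7.18 and 5.32 points. The order was not the same on chromosome 5, with 4.31, 6.43, 5.96 and 6.75 points, or on chromosome 6, with 2.92, 4.45, 5.64 and 5.56 points. Split by reads in AML5 over the same steps, the difference fell in each segment. From the shallowest step to the deepest it went from 14.6 to 12.6 points on chromosome 13 and from 10.3 to 4.99 on chromosome 21. On chromosome 5 it went from 8.44 to 6.06 points and on chromosome 6 from 7.96 to 4.18. The difference was positive in each of these steps, in segments chosen for a positive mean.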

How the data were processed

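Whole-genome bisulfite libraries of OCI-AML3 and AML5 (1 each) were analysed. The authors aligned paired-end reads to hg19 with Bismark (Bowtie 0.12.8 in the submitters' processing notes), and deposited unnormalized counts of calls for each CpG, methylated and unmethylated apart and both strands added. Removal of duplicate reads is not given in the sources used here. Mitochondrial calls (0.168% and 0.101% in the first count column) identified the methylated column, and all 26752702 autosomal positions matched a CG of GRCh37. Genes came from a GENCODE annotation lifted to GRCh37.

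Levels were averaged over sites that each line had read more than 5 times, and 20 percentage points was the limit for a call. Gene bodies exclude the promoter. Binning was tested on simulated calls with a uniform level and a set shift, at the depths of chromosome 21 only. The depths of the other segments were not covered. Segments, gene lists and limits were chosen with earlier results of these data known. Named were all protein-coding genes on fixed lists by role whose promoter had at least 10 covered CpG dinucleotides, and other genes by name where they were few. The window of the chromosome 21 segment is not reported here. KLHL1, on a list, starts outside the segments. With 1 library per line no test was made. Alternatives covered read and CpG minimums, averaging, dense sequence, bin size, limit and promoter width. Python 3.11.15, numpy 2.4.6, pandas 2.3.3 and matplotlib 3.10.9 were used.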

Additional observations from a re-analysis of the deposited data

How the results depend on the processing

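No paired analysis was possible because each line had 1 library. Of 60 alternative values, 33 were counted as unchanged and 27 moved, and in 0 did a segment difference turn its sign. Unchanged meant within read sampling error or within 1.5 times a count. The comparison segments, with 0 higher in OCI-AML3 under each alternative, were counted as unchanged without such a limit. The chromosome 13 difference was 12.2 points with at least 10 reads, 13.8 with at least 1 read, 11.3 as a share of all calls and 13.8 without CpG-dense sequence. In the same order the chromosome 21 difference was 6.29, 6.89, 5.27 and 6.85. On chromosome 5 it was 7.08 as a share of calls and 6.80 without dense sequence. On chromosome 6 it was 5.22 with at least 10 reads, 4.33 as a share of calls and 5.21 without dense sequence. Chosen after seeing the data, the chromosome 13 windows with a depth ratio of 0.6 or more gave 3.58 and those under it 14.6. Bins of 100 kb gave 107 higher and 24 lower past the limit of 20 points, bins of 1 Mb gave 10 and 3. A limit of 10 points gave 2057 and 533 bins of 10 kb, and 30 points 422 and 163. These counts changed with the number of bins and the limit itself. Depth ratios from median calls were 0.38, 0.77, 1.36 and 0.71 on chromosomes 13, 21, 5 and 6. With at least 10 reads, 2 promoters were higher and 4 lower past the limit. Without chromosome 13, 770 of 2802 bins were at least 20 points higher. On chromosome 13, shallow reading of OCI-AML3 limits single sites most.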

Other observations

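In the other autosomal sequence, bins that resemble those of the segments in CpG number (30 to 55 covered CpG dinucleotides) and in GC content (33.6% to 36.8%) had a different balance. Of 33763 such bins, 1488 (4.41%) were at least 20 points higher in OCI-AML3 and 9010 (26.7%) at least 20 points lower, with medians of 63.8% in OCI-AML3 and 74.6% in AML5. In the segment of 10 Mb with the largest decrease, on chromosome 4, 2 of 999 bins were at least 20 points higher and 649 lower. There 28.1% of covered CpG dinucleotides were below 20% in OCI-AML3 and 8.87% in AML5, where the 4 segments had 11.4% and 15.5%. The 4 segments were chosen as higher in OCI-AML3 and the chromosome 4 segment as the largest decrease, so a different balance follows from the choice. These values were not tested, since each line had 1 library.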
